A study of Drosophila melanogaster with 10 samples.

Results

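The contacts described here join different 5 kb bins of the chrX pericentromere whose starts lie less than 100 kb apart. They were measured by 5C in S2 cells, a cell line derived from Drosophila melanogaster embryos. The region runs over 148 bins, chrX:21659812-22397716 in dm3 coordinates as the files give them. Of the 40796 pairs of different bins on the same arm in the series, 2622 met this rule, and 8256 chrX pairs were farther apart. A score was present in at least 1 library for 2114 of the 2622 pairs and in all 9 libraries for 2104. Neighbouring bin pairs with an identical score in every library were counted as 1 contact, which left 1218 contacts, 1212 of them with a score in all 9 libraries. A contact held between 1 and 15 bin pairs, and 678 contacts held 1. No member was removed for a low value.

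There were 3 libraries of untreated WT cells, 2 of mock RNAi, 2 of HP1a RNAi and 2 in which Su(var)3-9 was depleted. The RNAi cells received 1 µg of dsRNA and were harvested 3 days later, with dsRNA against GFP as the mock control. All groups are the same S2 line, so the WT cells differ from mock RNAi by the transfection and the dsRNA. A reduced protein in a cultured line is not a mutant, and the level of HP1a or Su(var)3-9 in each library was not analysed here. The methods call the replicates of the WT 3C libraries biological. For the RNAi replicates neither labels nor methods say whether they were separate cultures, so there the tests measure the spread between these libraries, which may be technical.

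Pericentromeres are rich in repeats and are packaged as heterochromatin, marked by methylation of histone H3 on lysine 9. Su(var)3-9 is a methyltransferase that writes this mark, and HP1a is a chromodomain protein that binds it and can bridge nucleosomes. Genes that lie in this environment, such as fog on chrX, are nevertheless transcribed. 5C reads which EcoRI fragments lay close enough to be joined, by ligating a forward primer on one fragment to a reverse primer on its partner. Only fragments with primers of opposite kind can give a contact.

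Primers from either end of the chrX primer numbering are printed to show what a contact is made of. They are the forward and reverse chrX primers with the lowest and the highest fragment numbers, from the study's primer list, without their universal tails and written 5′ to 3′. Capitals mark the part of the EcoRI site at which the primer pair is ligated.
5C_5925_XE_FOR_20: acgactgcgttcgaagcacagagcgctGAA
5C_5925_XE_REV_16: TTCctaagtaaagagatagaatttctaggc
5C_5925_XE_FOR_228: gtcgtcctcctcgtctttgagtgaatcGAA
5C_5925_XE_REV_229: TTCtacgtagtcgctgtaatacaccgccac
The forward primers end and the reverse primers begin with these bases, and a product therefore carries a whole EcoRI site at its junction.

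Each value is a log2 ratio of observed over expected contact. Per the methods the expectation takes the distance into account, so positive values stand for contacts more frequent than expected at their distance. Coverage was close to equal: between 19.5% and 19.7% of the 2622 pairs had no score in a library, and 21 of the 148 bins had none under 100 kb in any library. Of these empty bins 16 lay together at chrX:21704812-21784812. The scores were smoothed by the authors, and the 1213 to 1217 contacts with a score in a library held between 532 and 637 distinct scores, so neighbouring contacts are not independent measurements. The files give no read numbers and hence no counting error. In the read statistics each depleted library had fewer reads with the EcoRI site than any control, so sequencing depth and the depletion cannot be told apart. The Su(var)3-9 RNAi libraries stood apart from each other: the chrX median was -1.34 in replicate 1 and -0.62 in replicate 2, and on chr3L 94.9% of the bin pairs under 100 kb had no score in replicate 2.

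Scores, which are relative to the expectation at each distance, were highest between close bins in the controls. In WT the median score of contacts 5 to 20 kb apart was -0.09, -0.04 and -0.31 in replicates 1, 2 and 3. At 75 to 95 kb it was -0.27, -0.41 and -0.77 in the same libraries. Every WT library thus fell with distance, and the level of replicate 3 lay below the other two at each distance. Mock RNAi took the values -0.28 and -0.28 at 5 to 20 kb and -0.69 and -0.76 at 75 to 95 kb, close to WT replicate 3. HP1a RNAi reached 0.08 and 0.08 among the close contacts and -0.41 and -0.15 among the far ones. Su(var)3-9 RNAi gave -1.13 and -0.38 among the close contacts and -1.43 and -0.66 among the far ones.

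**Figure D1:**
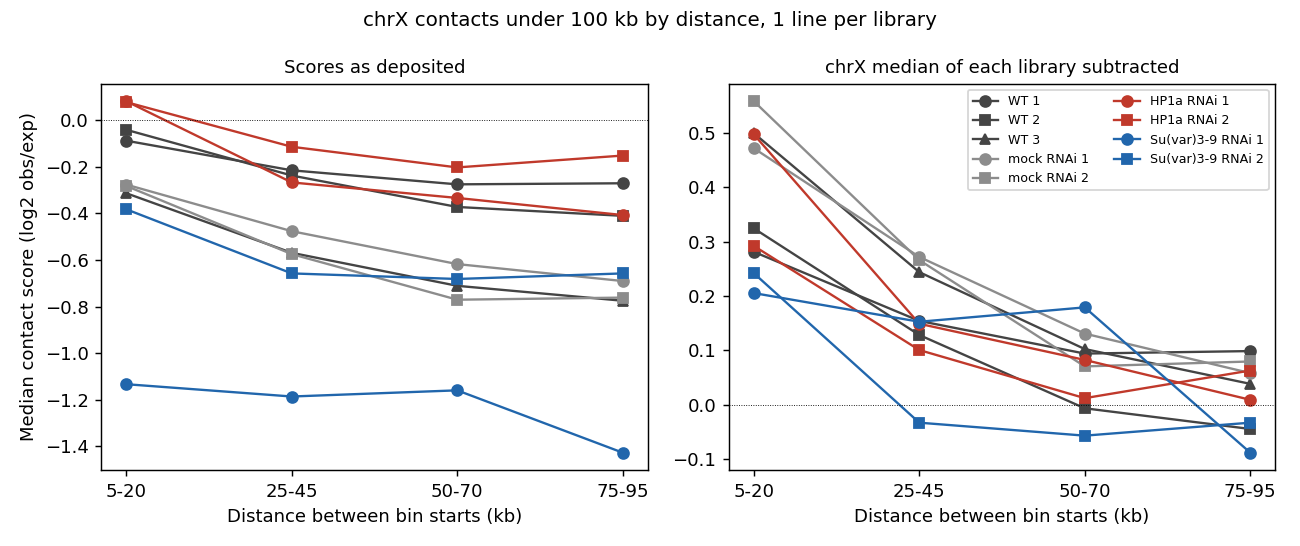
Median score of the chrX contacts (log2 observed over expected) in 4 classes of distance between bin starts (kb), 1 line per library, as deposited (left) and minus the chrX median of each library (right). As deposited the libraries are separated by level, with both HP1a RNAi libraries above both mock RNAi libraries at each distance. After subtraction the 5 to 20 kb class lies highest in each library.

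The median over all contacts under 100 kb was -0.23, -0.29 and -0.62 over the WT replicates, while the mock libraries had -0.51 and -0.62. The values were -0.23 and -0.10 for HP1a RNAi, with -1.20 and -0.60 for Su(var)3-9 RNAi. Both HP1a RNAi libraries were above both mock RNAi libraries, by 0.40 on average, while the Su(var)3-9 RNAi and mock RNAi libraries overlapped (difference -0.33). With 2 libraries against 2 no value can pass the test: the two-sided exact permutation p was 0.333 for HP1a RNAi, the smallest it allows, and 0.667 for Su(var)3-9 RNAi. Mock RNAi differed from WT by -0.19 (exact permutation p = 0.40, smallest possible 0.20), and both depletions from all 5 controls by -0.08 (exact permutation p = 0.778). The Su(var)3-9 RNAi difference rested on replicate 1: it was -0.033 without that library and -0.64 without replicate 2. After Benjamini-Hochberg adjustment over the 14 tests of this kind the lowest p was 0.778.

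These levels were shared with the rest of the region. The chrX median over all distances was higher in HP1a RNAi than in mock RNAi by 0.48, and the difference at 100 kb and over was 0.49. With the chrX median of each library subtracted, the contacts under 100 kb lay 0.18 and 0.11 above it in HP1a RNAi against 0.24 and 0.22 for the mock, so the direction turned (difference -0.08). Su(var)3-9 RNAi lay 0.14 and 0.02 above it (difference -0.15). Both depletions were therefore below mock RNAi on this scale, and within the range of WT (0.14, 0.07 and 0.20) except for Su(var)3-9 RNAi replicate 2. On the 4 other arms, where the bins are 10 kb, the deposited scores under 100 kb were higher on average in HP1a RNAi than in mock RNAi by 0.17 to 0.34, with the libraries apart on 3 arms and overlapping on chr2L.

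The excess in score of close over far contacts was smaller in all depleted libraries than in mock RNAi, in a design that cannot pass the test. The median of contacts under 50 kb minus that of contacts from 50 kb was 0.10, 0.25 and 0.27 for WT, 0.26 and 0.31 for the mock, 0.20 and 0.12 for HP1a RNAi, with 0.09 and 0.17 for Su(var)3-9 RNAi. All 4 depleted libraries were below both mock RNAi libraries, but WT replicate 1 lay among them. The difference from mock RNAi was -0.12 for HP1a RNAi and -0.16 for Su(var)3-9 RNAi, each with an exact permutation p of 0.333. The separation of HP1a RNAi did not hold in every setting: with every bin pair counted its libraries overlapped mock RNAi (difference -0.084, exact permutation p = 0.667), and the difference was -0.082 without HP1a RNAi replicate 2 and -0.076 against WT and mock RNAi together. The measure does not depend on the level of a library.

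The share of positive scores was highest in HP1a RNAi. A score above 0 was seen in 22.9%, 25.8% and 8.90% of the contacts in WT, in 9.65% and 9.32% for the mock, in 32.9% and 40.1% for HP1a RNAi, and in 5.92% and 13.6% for Su(var)3-9 RNAi. The HP1a RNAi libraries had the highest shares of the 9. The share above the chrX median of the same library gave another order: 65.0%, 58.8% and 70.2% for WT, 70.0% and 67.3% for the mock, 64.3% and 61.0% for HP1a RNAi, with 56.6% and 51.0% for Su(var)3-9 RNAi.

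Of the 1212 contacts, 51 (4.21%) were above 0 in all 5 controls and 6 (0.495%) in all 9 libraries. The shares over all arms were not computed for this pair of counts, so nothing particular to chrX is read from them. Contacts above 0 in both HP1a RNAi libraries and in no control numbered 104 (8.58%, against 2.87% of the 15995 contacts of all arms), and 44 of them had their midpoint at chrX:22129812-22219812. The reverse, above 0 in all controls and in neither HP1a RNAi library, was seen for 1 contact (0.0825%, against 0.075% of all contacts). In Su(var)3-9 RNAi 14 contacts were gained in this sense (1.16%, against 0.4% of all contacts) and 20 lost (1.65%, against 0.494% of all contacts). These counts follow the level of a library, which differed between groups. The shares of all contacts pool every distance, so they are not matched to contacts under 100 kb.

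The region was divided into 8 stretches of 18 or 19 bins. Stretch 1, chrX:21659812-21754812, held 3 contacts because of the empty bins, stretch 2 held 59, stretch 8 held 83, and the other stretches held 171 to 237. As deposited, the median was higher in both HP1a RNAi libraries than in both mock RNAi libraries in all 8 stretches. The difference ranged from 0.13 in stretch 2 to 0.77 in stretch 6, with 1.17 in the sparse stretch 1. In Su(var)3-9 RNAi both libraries were below both mock RNAi libraries in stretches 2, 3 and 4, by 0.51, 0.55 and 0.68.

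With the chrX median subtracted, stretches 4 and 6 separated the depleted libraries from the controls, in opposite directions. In stretch 4, chrX:21944812-22039812, the median was 0.41, 0.39 and 0.21 for WT, 0.31 and 0.37 for the mock, 0.08 and 0.06 for HP1a RNAi, with -0.16 and -0.16 for Su(var)3-9 RNAi. All 4 depleted libraries were below all 5 controls. In stretch 6, chrX:22129812-22219812, it was 0.15, 0.05 and 0.25 for WT, 0.17 and 0.06 for the mock, 0.52 and 0.30 for HP1a RNAi, with 0.52 and 0.43 for Su(var)3-9 RNAi. Here all 4 depleted libraries were above all 5 controls. In the controls stretch 4 was the higher of the pair in all libraries but WT replicate 3, and in the depleted cells stretch 6 was the higher in each library.

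The comparison of the 4 depleted with the 5 control libraries was run after these medians were seen. The difference was -0.38 in stretch 4 and 0.31 in stretch 6, each with a two-sided exact permutation p of 0.0159, the smallest the design allows, and an adjusted p of 0.127 over the 16 tests of 8 stretches on both scales. Stretch 3, chrX:21849812-21944812, had a difference of -0.24 (exact permutation p = 0.0317, adjusted p = 0.169). On the deposited scores no stretch separated the depleted libraries from the controls. Depth differs between the same 2 sets of libraries and cannot be told apart from the depletion.

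**Figure D2:**
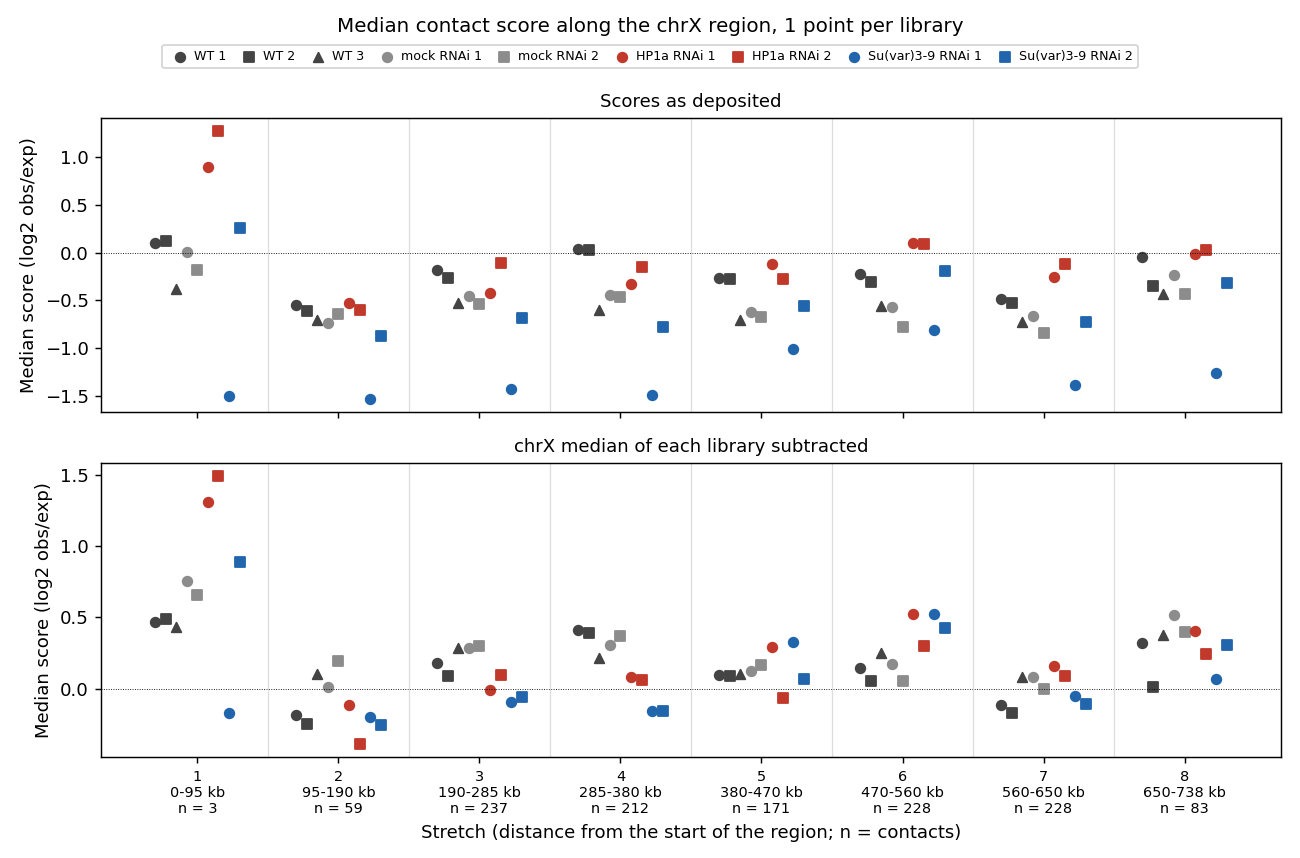
Median score (log2 observed over expected) of the contacts in 8 stretches along the chrX region, 1 point per library, as deposited (top) and minus the chrX median of each library (bottom). In the bottom panel the depleted libraries lie at -0.16 to 0.08 in stretch 4, below the controls, and at 0.30 to 0.52 in stretch 6, above them.

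**Figure D3:**
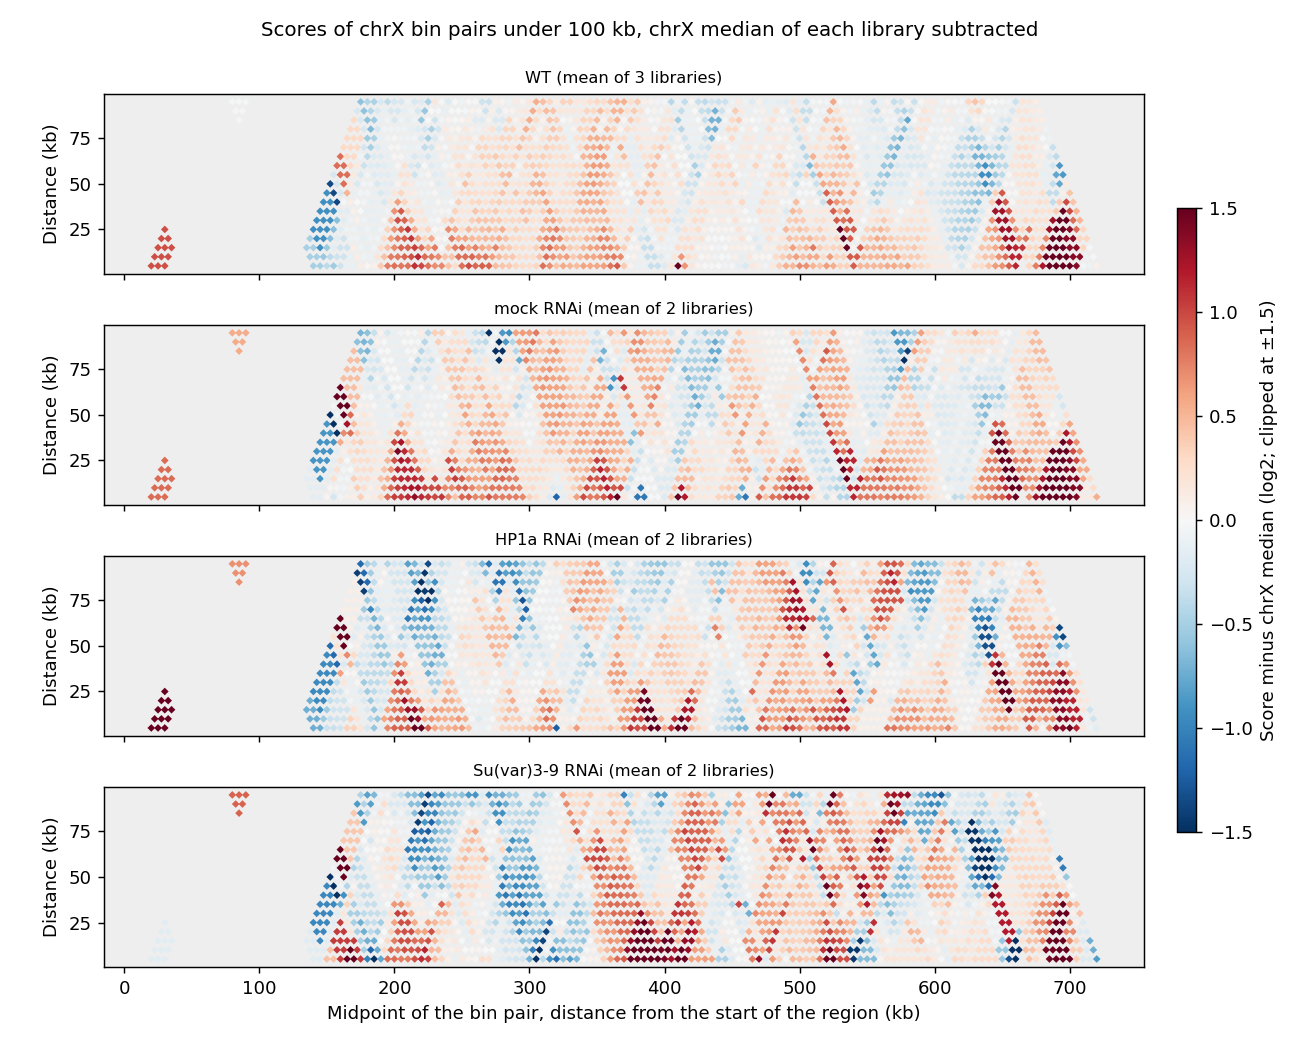
Scores of the chrX bin pairs under 100 kb with a value in all 9 libraries, as the mean of each group after subtraction of the chrX median of each library (colour, log2, clipped at 1.5 in either direction). The horizontal axis is the midpoint of the pair in kb from the start of the region and the vertical axis the distance between bins in kb. Triangles of close contacts and oblique stripes from single bins are seen, and some of them differ between the groups.

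The highest-scoring contacts of WT were short and lay in few places. The highest was between chrX:22064812-22069812 and the neighbouring bin, with 1.80, 1.87 and 1.29 for WT, 1.98 and 1.73 for the mock, 2.99 and 2.25 for HP1a RNAi, with 1.63 and 0.40 for Su(var)3-9 RNAi. It was above 0 in every library. The second, between chrX:22334812-22344812 and chrX:22354812-22364812, had 1.67, 1.26 and 1.41 for WT, 1.38 and 1.03 for the mock, 1.19 and 0.86 for HP1a RNAi, with 0.62 and 1.04 for Su(var)3-9 RNAi. The block of 7 bins around it, chrX:22334812-22369812, kept a median above 0 in each library, from 0.62 to 1.67 over 6 contacts. The third joined chrX:22174812-22189812 to chrX:22199812-22204812 and is described among the losses in Su(var)3-9 RNAi.

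The lowest WT contacts joined chrX:21784812-21799812, the first scored bins after the empty run, to chrX:21834812-21839812 and to chrX:21809812-21834812. The first of these had -1.65, -1.57 and -2.38 for WT, and was between -3.14 and -1.45 in the other libraries. The second had -1.57, -1.18 and -1.58 for WT and between -2.33 and -0.72 in the other libraries. Neither passed the limma test in the 4 comparisons run, which did not set WT against either depletion. The remaining low contact, between chrX:22264812-22274812 and chrX:22319812-22329812, is among the losses in Su(var)3-9 RNAi.

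Insulation was measured at each bin border as the mean score of pairs across it minus that of pairs on either side, at shared distances. The 3 lowest WT borders at least 50 kb apart were at chrX:22279812 (-0.44, -0.43 and -0.57 in the WT replicates), chrX:22379812 (-0.58, -0.26 and -0.30) and chrX:21804812 (-0.60, -0.28 and -0.18). Of these, chrX:22379812 was the last border with a value, and chrX:21804812 lay close to the empty run that ends at chrX:21784812. Both thus lay at an edge of the scored bins, with few scored pairs on that side. The border at chrX:22279812 lies in the bins over CG42346. There the mock RNAi libraries had -0.50 and -0.41, HP1a RNAi had -0.54 and -0.51, and Su(var)3-9 RNAi had -0.47 and -0.50, so that 5 of these 6 libraries were within the WT range and mock RNAi replicate 2 just above it. At chrX:22379812 the mock RNAi libraries had -0.35 and -0.17, HP1a RNAi had -0.90 and -0.52, and Su(var)3-9 RNAi had -0.67 and -0.43, all 4 below both mock RNAi libraries but overlapping WT. Over the 3 borders the mean was -0.54, -0.32 and -0.35 for WT, -0.44 and -0.22 for the mock, -0.71 and -0.32 for HP1a RNAi, with -0.59 and -0.34 for Su(var)3-9 RNAi. On this mean the groups overlapped, with differences from mock RNAi of -0.18 for HP1a RNAi and -0.14 for Su(var)3-9 RNAi (exact permutation p = 0.667 each), and both turned positive when only pairs under 50 kb were used.

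Single contacts were tested with limma in a fit of the 4 group means over 15995 contacts of all arms with a score in all 9 libraries, and p-values were adjusted over all of them with the Benjamini-Hochberg method at a threshold of 0.05. Between mock RNAi and WT, limma called 0 of the 1212 chrX contacts, as in the whole series (0% called), and 29 were lower and 0 higher at an unadjusted p under 0.05. The same was true of HP1a RNAi against mock RNAi, with 0 calls here and 0% in the series. At an unadjusted limma p under 0.05, 177 contacts were higher and 3 lower. With the arm median subtracted, these unadjusted counts were 101 higher and 198 lower. For mock RNAi against WT they were then 27 higher and 32 lower. The unadjusted counts thus follow the level of a library, and their share over all contacts was not computed. In Su(var)3-9 RNAi 7 contacts were called, all lower than in mock RNAi (0.578%, against 0.775% of all contacts). Directly between the depletions 18 contacts were called, all higher in HP1a RNAi (1.49%, against 0.531% of all contacts). The share of Su(var)3-9 RNAi calls against mock RNAi was near the background and is no result about chrX. With any 1 library of WT, mock RNAi or HP1a RNAi left out, limma called 0 contacts in both comparisons. Without Su(var)3-9 RNAi replicate 1 it called 259 against mock RNAi (21.4%, against 35.2% of all contacts) and 239 between the depletions (19.7%, against 36.7%). Without replicate 2 these were 463 (38.2%, against 29.8%) and 662 (54.6%, against 43.7%). In HP1a RNAi against mock RNAi it called 129 in either case (10.6%, against 6.26%). In the comparisons with Su(var)3-9 RNAi, the shares on chrX thus lay below or above those of all contacts depending on which Su(var)3-9 RNAi library was left out. In HP1a RNAi against mock RNAi the share on chrX was the higher, but either case gives the same fit. A lone Su(var)3-9 RNAi library adds nothing to the spread, so the cases are not separate checks.

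By separation of the libraries, 653 contacts were higher in both HP1a RNAi libraries than in both mock RNAi libraries (53.9%, against 53.3% of all contacts) and 78 were lower (6.44%, against 6.01%). For Su(var)3-9 RNAi 163 were higher (13.4%, against 9.63%) and 561 lower (46.3%, against 37.5%). With the arm median subtracted, 251 were higher in HP1a RNAi (20.7%, against 25.6%) and 465 lower (38.4%, against 27.5%), and in Su(var)3-9 RNAi 252 were higher (20.8%, against 29.6%) and 490 lower (40.4%, against 33.3%). On the subtracted scale the lower contacts thus outnumbered the higher ones in both depletions. The median contact changed by -0.13 in HP1a RNAi and by -0.20 in Su(var)3-9 RNAi, against -0.01 and -0.03 over all arms. The all-arm values pool every distance and lie near 0 because each arm's median was subtracted. They and the all-arm shares are thus not matched for distance. On the same scale mock RNAi was itself above WT in 270 contacts (22.3%, against 13.4%) and below it in 84 (6.93%, against 12.3%), so these counts are against a mock group that lay higher than WT. In medians of deposited bin pairs, the HP1a RNAi difference from mock RNAi was smaller under 100 kb than beyond on chrX (0.40 against 0.49). It was also smaller on chr2L (0.25 against 0.34), chr2R (0.22 against 0.30) and chr3R (0.17 against 0.30), but 0.34 in both classes on chr3L. For Su(var)3-9 RNAi the difference was lower under 100 kb on every arm, among them chrX (-0.30 against -0.14) and chr2R (-0.47 against -0.30).

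The 7 losses in Su(var)3-9 RNAi fell into 3 places. The first lies around chrX:22199812. The contact of chrX:22174812-22189812 with chrX:22199812-22204812 had 1.296, 1.357 and 1.464 for WT, 1.42 and 1.46 for the mock, 1.03 and 0.76 for HP1a RNAi, with -0.52 and -0.05 for Su(var)3-9 RNAi. It was above 1 in every control and below 0 in both Su(var)3-9 RNAi libraries (difference -1.72 ± 0.30, SE; limma adjusted p = 0.0442). The adjoining contact of chrX:22189812-22199812 with chrX:22199812-22214812 had 0.49, 0.36 and 0.32 for WT, 0.36 and 0.35 for the mock, 0.21 and -0.20 for HP1a RNAi, with -2.32 and -2.55 for Su(var)3-9 RNAi (difference -2.79 ± 0.29, SE; limma adjusted p = 0.0386).

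The second place is chrX:22309812-22329812 with its surroundings, at the start of stretch 8. The contact of chrX:22309812-22319812 with chrX:22319812-22329812 had 0.53, 0.79 and 0.57 for WT, 0.60 and 0.89 for the mock, 0.71 and -0.60 for HP1a RNAi, with -2.56 and -2.53 for Su(var)3-9 RNAi (difference -3.28 ± 0.41, SE; limma adjusted p = 0.0386). The largest loss thus turned a contact above expectation in each control into one far below it, and HP1a RNAi replicates 1 and 2 lay on opposite sides of 0. The contact of chrX:22309812-22314812 with its neighbour fell by 2.67 on the log2 scale. Contacts of the same right-hand bins with chrX:22254812-22264812 and chrX:22264812-22274812, both over CG42346, were already low in mock RNAi (-1.06 and -1.24, and -1.32 and -1.57) and were lower in Su(var)3-9 RNAi (-3.31 and -3.13, and -4.29 and -3.72). The last loss, between chrX:21799812-21804812 and chrX:21839812-21844812, was alone in stretch 2 (difference -1.80 ± 0.33, SE; limma adjusted p = 0.046).

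**Figure D4:**
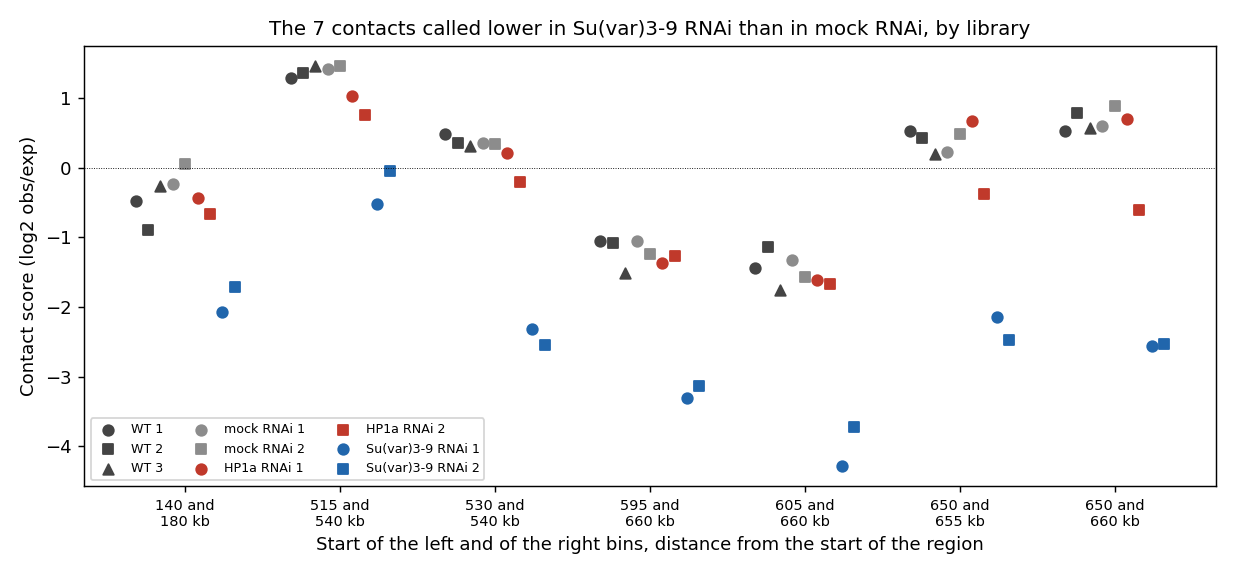
Score (log2 observed over expected) in each library of the 7 contacts called lower in Su(var)3-9 RNAi than in mock RNAi, placed by the start of their left and right bins in kb from the start of the region. In each contact both Su(var)3-9 RNAi points lie below the 7 other libraries.

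Of the 18 contacts higher in HP1a RNAi than in Su(var)3-9 RNAi, 12 were in stretch 4, between bins of chrX:21929812-21999812. The contact of chrX:21959812-21964812 with the next bin is an example, with 0.08, -0.27 and -0.38 for WT, -0.56 and -0.54 for the mock, 0.43 and 0.06 for HP1a RNAi, with -3.05 and -1.91 for Su(var)3-9 RNAi (difference 2.73 ± 0.40, SE; limma adjusted p = 0.0456). The depletions lay on opposite sides of mock RNAi, and against mock RNAi neither passed the threshold (limma adjusted p = 0.547 for HP1a RNAi and 0.0559 for Su(var)3-9 RNAi). The median over the 38 contacts inside chrX:21944812-22004812, a block chosen after the maps were seen, was 0.14, 0.17 and -0.55 for WT, -0.47 and -0.63 for the mock, 0.06 and -0.19 for HP1a RNAi, with -1.85 and -1.05 for Su(var)3-9 RNAi. HP1a RNAi was within the WT range there and Su(var)3-9 RNAi below all other libraries.

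The smallest adjusted p in this comparison, 0.0169, belonged to the isolated bins at the left end, chrX:21674812-21704812. Their contact had 0.35, 0.60 and 0.39 for WT, 0.06 and 0.05 for the mock, 1.91 and 1.67 for HP1a RNAi, with -1.53 and -0.76 for Su(var)3-9 RNAi. The depletions lay on either side of all 5 controls (difference 2.94 ± 0.33, SE). This contact holds 12 bin pairs with 1 score per library and was counted once.

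With the arm median subtracted, limma called 12 contacts in HP1a RNAi against mock RNAi, 10 higher and 2 lower (0.99%, against 0.544% of all contacts), and 267 in Su(var)3-9 RNAi, 83 higher and 184 lower (22.0%, against 21.3% of all contacts). Of the 184 lower ones 53 each lay in stretches 3 and 4, and of the 83 higher ones 39 lay in stretch 6. Of the 10 contacts higher in HP1a RNAi, 9 lay in stretches 6 and 7, and they share left-hand bins at chrX:22174812-22194812. These 4 bins are called the anchor in what follows. They were chosen from these calls, so their change from mock RNAi is described and not tested.

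Of the calls higher in HP1a RNAi that gave the anchor, 8 joined it to bins on its right over fog and CG42346. Another joined anchor bins to each other. The anchor's nearer partners on the right, 5 to 30 kb away, lie over neither gene. The gene fog encodes a secreted ligand that drives apical constriction of cells in gastrulation. The genes were placed by the dm3 positions in a table of the study that lists genes for their response to another knockdown. Of 5 chrX genes of that table, fog covered chrX:22224812-22259812 in whole bins, CG42346 chrX:22229812-22289812 and CG34334 chrX:22269812-22279812, so the bins of these genes overlap. The other genes are Usp2, a ubiquitin-specific protease, and l(1)G0196, a predicted inositol phosphate kinase.

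The median of the 35 contacts between the anchor and the bins of fog and CG42346 was -0.55, -0.59 and -1.11 for WT, -1.04 and -1.14 for the mock, 0.20 and 0.31 for HP1a RNAi, with -0.63 and 0.38 for Su(var)3-9 RNAi. As deposited, both HP1a RNAi libraries were above all controls, and Su(var)3-9 RNAi replicate 1 was within the WT range. With the chrX median subtracted it was -0.18, -0.22 and -0.30 for WT, -0.30 and -0.30 for the mock, 0.61 and 0.52 for HP1a RNAi, with 0.71 and 1.00 for Su(var)3-9 RNAi. On this scale the 4 depleted libraries lay together, well above the 5 controls.

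The contact with the smallest unadjusted limma p between HP1a RNAi and mock RNAi, whose adjusted p was shared with other contacts, was that of chrX:22184812-22189812 with chrX:22279812-22284812. It had -0.79, -0.57 and -1.07 for WT, -1.417 and -1.502 for the mock, 0.52 and 0.49 for HP1a RNAi, with -0.10 and 0.67 for Su(var)3-9 RNAi. It was below expectation in each control and above it in 3 of 4 depleted libraries. The difference from mock RNAi was 1.97 ± 0.34 (SE) in HP1a RNAi (limma adjusted p = 0.367, and 0.0248 after subtraction of the arm median) and 1.74 ± 0.34 (SE) in Su(var)3-9 RNAi (limma adjusted p = 0.05, not called, and 0.00185 after subtraction).

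The contact of chrX:22179812-22189812 with chrX:22274812-22279812, over CG42346 and CG34334, had -0.62, -0.59 and -1.39 for WT, -1.63 and -1.69 for the mock, 0.40 and 0.85 for HP1a RNAi, with -0.31 and 0.87 for Su(var)3-9 RNAi. That of chrX:22179812-22189812 with chrX:22249812-22254812, over fog, had -0.49, -0.59 and -0.97 for WT, -1.04 and -0.98 for the mock, 0.40 and 0.89 for HP1a RNAi, with 0.27 and 0.72 for Su(var)3-9 RNAi. In the contact over fog all 4 depleted libraries were above 0 and all 5 controls below it. Nearer to the anchor the depletions parted: with chrX:22229812-22234812, at the left end of CG42346 and inside the bins of fog, the score was -0.37 and -0.78 for HP1a RNAi against 0.02 and 0.40 for Su(var)3-9 RNAi, with -0.55 and -1.02 for the mock (difference between depletions -0.78 ± 0.32, SE; limma adjusted p = 0.121).

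**Figure D5:**
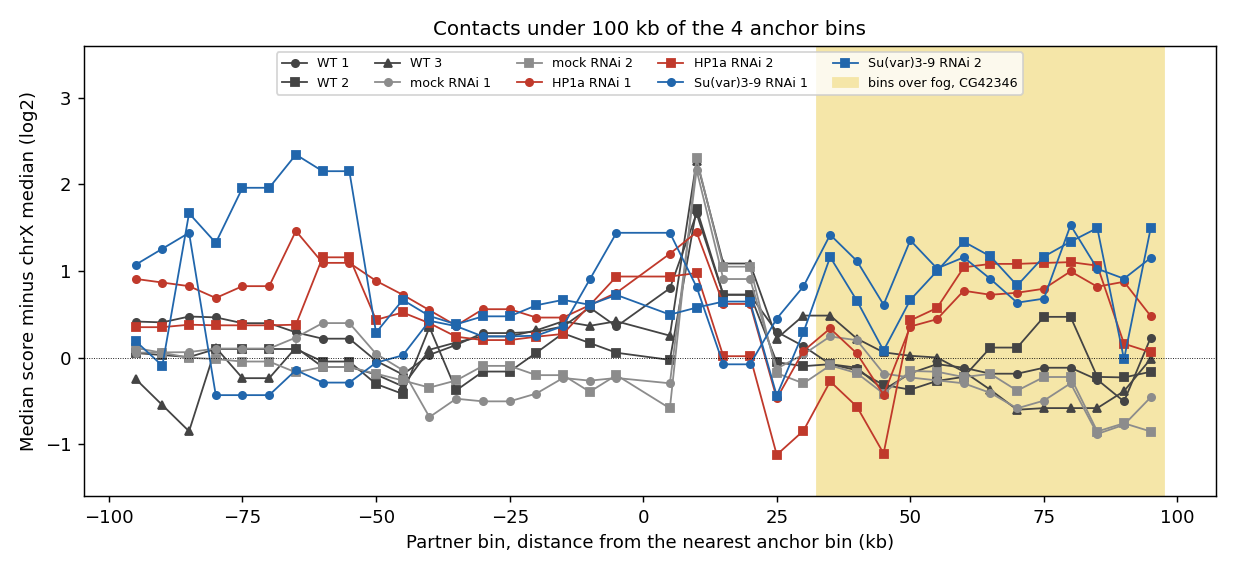
Median score of the 4 anchor bins (log2, minus the chrX median of each library) with each partner bin under 100 kb away, by distance from the nearest anchor bin (kb), 1 line per library. The shaded bins lie over fog and CG42346: from 50 to 80 kb the 4 depleted libraries are above the 5 controls, while at 10 kb the controls are highest.

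The other contacts of the genes and of the anchor are given for comparison. Contacts of the bins of fog and CG42346 with bins outside both the genes and the anchor had a subtracted median of 0.05 and 0.03 for HP1a RNAi, with 0.09 and -0.23 for Su(var)3-9 RNAi, against 0.03 and 0.06 for the mock. Contacts within the genes had 0.22 and 0.51 for HP1a RNAi, with 0.08 and 0.08 for Su(var)3-9 RNAi, against 0.16 and 0.23 for the mock. In the first set both depletions overlapped mock RNAi, and in the second HP1a RNAi overlapped it while both Su(var)3-9 RNAi libraries were below it. The anchor's 59 contacts with all other bins had 0.63 and 0.37 for HP1a RNAi, with 0.29 and 0.54 for Su(var)3-9 RNAi, against -0.07 and -0.15 for the mock and 0.36, 0.06 and 0.25 for WT. Mock RNAi was below WT at the anchor, so the difference from WT is smaller than that from mock RNAi. On the deposited scores the contact of chrX:22174812-22179812 with the bins next to it had 0.18, 0.12 and 0.02 for WT and -0.85 and -1.43 for the mock (difference -1.24 ± 0.32, SE; limma adjusted p = 0.801), and 0.56 and 0.72 for HP1a RNAi.

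The bins of Usp2, chrX:21854812-21874812, lay lower in the depleted libraries. The subtracted median of their 75 contacts was 0.11, 0.01 and 0.16 for WT, 0.21 and 0.30 for the mock, -0.06 and -0.01 for HP1a RNAi, with -0.07 and -0.26 for Su(var)3-9 RNAi. All depleted libraries were below all controls, with differences from mock RNAi of -0.29 and -0.42. On the deposited scores Usp2 was higher than mock RNAi in HP1a RNAi (-0.47 and -0.22 against -0.53 and -0.54) and lower in Su(var)3-9 RNAi (-1.41 and -0.88). The 117 contacts of l(1)G0196, chrX:21884812-21914812, had 0.21, 0.15 and 0.32 for WT, 0.25 and 0.21 for the mock, 0.06 and 0.14 for HP1a RNAi, with -0.02 and -0.004 for Su(var)3-9 RNAi after subtraction. They were again lowest in the depleted cells, by less. Both genes lie in stretch 3, whose subtracted median itself changed from mock RNAi by -0.25 in HP1a RNAi and -0.37 in Su(var)3-9 RNAi. No test is given for the genes, since they were examined with these results known.

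After subtraction limma called 2 contacts lower in HP1a RNAi than in mock RNAi, those of chrX:21834812-21839812 with chrX:21914812-21919812, the bins next to l(1)G0196, and of chrX:21994812-21999812 with chrX:22074812-22079812. The first had -0.63, -0.64 and -0.81 for WT, -1.29 and -1.13 for the mock, -2.43 and -1.93 for HP1a RNAi, with -2.63 and -2.20 for Su(var)3-9 RNAi, so both depletions were below all controls also on the deposited scores (difference in HP1a RNAi -0.97 ± 0.32, SE; limma adjusted p = 0.433, and 0.028 after subtraction). The second had a mean of -0.34 over the WT libraries, -0.27 over the mock libraries, -0.84 over the HP1a RNAi libraries and -1.42 over the Su(var)3-9 RNAi libraries.

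Between mock RNAi and WT the named contacts with the smallest p had a limma adjusted p of 0.801. That of chrX:22064812-22074812 with chrX:22129812-22134812 had -0.20, -0.12 and -0.50 for WT and -1.19 and -1.48 for the mock. The libraries did not overlap there, and the difference of -1.07 ± 0.27 (SE) did not pass.

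How alike the libraries were over the 1212 contacts is given as a description, since the contacts share libraries and smoothing. Pearson's r was 0.82 between the mock RNAi libraries, 0.50 to 0.74 between WT libraries, 0.56 between the HP1a RNAi libraries and 0.43 between the Su(var)3-9 RNAi libraries. WT and mock RNAi libraries correlated at 0.53 to 0.78. Mock RNAi correlated with HP1a RNAi at 0.30 to 0.41 and with Su(var)3-9 RNAi at 0.08 to 0.19, while libraries of the 2 depletions correlated at 0.35 to 0.53.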

How the data were processed

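The authors deposited, for 9 of the libraries, log2 observed over expected scores for pairs of bins on the same arm (dm3; 5 kb bins on chrX and 10 kb bins on the other arms). Per the labels and the methods, reads were processed with bcl2fastq and Bowtie2, assigned to primer pairs, binned with median smoothing and normalized with my5C. A further control library was not analysed here, nor were reads, RNA or ChIP data. Zeros were treated as missing values. On chrX each pair had the same score in either order. Bin pairs 1 step apart whose scores differed by less than 1e-06 in all 9 libraries were joined into contacts. Library medians went into exact permutation tests, two-sided (scipy 1.17.1), and contacts by limma 3.58.1 in R 4.3.3, without a pseudocount. Because the values are log2 scores, no count test was run. Data for HP1a RNAi against mock RNAi were simulated over 15995 contacts, with 200 contacts changed. The share that limma found was 0% for a log2 change of 1, 36% for 2 and 90% for 4. For a change of 1 limma made no call, and for 2 and 4 the false share of calls was 4.00% and 3.74%. The noise was drawn independently, without the smoothing and the level differences of the real scores. Error rates under those were not tested. The contacts named are, per direction, the 3 of smallest adjusted p among those whose groups do not overlap, the 3 highest and 3 lowest of WT, and every contact called. Contacts named after subtraction of the arm median, the anchor and the blocks were chosen after their values were seen. The members, lists and tests were chosen with earlier results of these data known. Of 5 genes with a dm3 position, 5 matched RefSeq gene names. No dm3 genome was used here, so primers were not placed on bins.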

Additional observations from a re-analysis of the deposited data

Results flagged for a closer look

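The libraries of the depletions lay on opposite sides of both mock RNAi libraries in 7 of the summaries, and in none of them was the difference itself tested. The value given is the HP1a RNAi change minus the Su(var)3-9 RNAi change against the shared mock RNAi libraries. It was 0.64 for stretch 2, 0.79 for stretch 3 and 0.89 for stretch 4 on the deposited scores. For the contacts of Usp2 it was 0.80, and for the contacts of fog and CG42346 with bins outside the anchor 0.77. For the block chrX:21944812-22004812, chosen after the maps were seen, it was 1.38. With the chrX median subtracted, stretch 7 was the one stretch of this kind, with 0.20. Stretches 2, 3 and 4 then had both depletions on the same side, below both mock RNAi libraries. The changes from mock RNAi were -0.35, -0.25 and -0.27 with HP1a depleted. With Su(var)3-9 depleted they were -0.33, -0.37 and -0.50. Both depletions also lay below mock RNAi for Usp2, but overlapped it for the contacts of fog and CG42346. The chrX median itself was 0.67 higher in HP1a RNAi than in Su(var)3-9 RNAi, and the deposited values include this level.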

How the results depend on the processing

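With the chrX median subtracted, the median score turned to 0.092 for mock RNAi against WT and -0.080 for HP1a RNAi against mock RNAi, and the percent of contacts above 0 turned to 3.96, -5.96 and, for Su(var)3-9 RNAi, -14.8. The last also turned to -6.36 under 50 kb and to -5.56 with WT and mock RNAi together as the control, and ranged from -3.56 to 4.11 when single libraries were left out. The median of both depletions against the controls ranged from -0.22 to 0.14 without single libraries (0.14 without Su(var)3-9 RNAi replicate 1) and was 0.032 as paired differences from mock RNAi (replicate block). Under 50 kb the insulation differences turned to -0.019 for mock RNAi, 0.079 for HP1a RNAi and 0.14 for Su(var)3-9 RNAi. Without single libraries they ranged from -0.038 to 0.19 for mock RNAi and from -0.38 to 0.013 for HP1a RNAi. The calls of limma depended on the setting. HP1a RNAi against mock RNAi went from 0 to 12 with the arm median subtracted and to 0 to 129 without single libraries. Su(var)3-9 RNAi went from 7 to 267 with the arm median subtracted (22.0%, against 21.3% of the contacts of all arms), 27 with every bin pair counted (1.28%, against 1.59%), 3 with a trended robust prior (0.248%, against 0.444%), 268 with WT and mock RNAi as the control (22.1%, against 21.2%), and 0 to 463 without single libraries. The 7 contacts stayed lower in each limma fit over contacts and were all called again after subtraction. HP1a RNAi against Su(var)3-9 RNAi went from 18 to 29 after subtraction (2.39%, against 2.69%), of which 13 were among the 18, 45 with every bin pair (2.14%, against 1.01%), and 0 to 662 without single libraries. In a fit that left a group with 1 library, that library is assumed to vary like the other groups. With a replicate block limma called 0 in each comparison, and with the block and the subtraction together, added after seeing the data, 0 for HP1a RNAi, 230 for Su(var)3-9 RNAi (19.0%, against 17.3%) and 2 between the depletions (0.165%, against 0.075%). Deviations from the group means correlated between equal numbers at r = -0.13 for mock RNAi with Su(var)3-9 RNAi, -3.87e-05 for mock RNAi with HP1a RNAi and 0.09 for the depletions. With 2 libraries per group these deviations mirror each other, so they cannot show whether equal numbers were prepared together. With the numbers of Su(var)3-9 RNAi exchanged, which was chosen after seeing the data, the calls were 0 and 5 for Su(var)3-9 RNAi against mock RNAi and against HP1a RNAi (0% and 0.413%, against 0% and 0.138%). The causes of these changes were not tested. The depth of the scores is unknown, so no counting error can be given for a contact.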
